A study of Mus musculus with 13 samples.

Results

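Among 2505 DNA barcodes followed in transplanted leukaemia, 150 marked small clones that were found in a single mouse. A barcode was counted as found in a mouse when M, the mean of its bone marrow and spleen CPM (reads per 1000000 barcode reads of a library), was 10 or more. The 150 were above 0 in the starting cells, found in exactly 1 of the 6 mice, and had a highest M under 1000 CPM, which is 0.1% of a library. They were chosen from these disease values, so their numbers and levels at disease are descriptions. The balance between the organs was used in part, since a clone at 0 in 1 organ needs 20 CPM or more in the other to be counted. Of the 2394 barcodes above 0 in the starting cells, 1843 were found in 0 mice, 378 in 2 to 6 mice and 173 in 1 mouse. The remaining 23 of those 173 were the one-mouse barcodes at 1000 CPM or more.

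The SPLINTR library writes a heritable DNA tag into the genome of each transduced cell, so that all descendants of that cell share it and the share of reads follows the size of the clone. MLL-AF9 is a fusion oncogene that turns haematopoietic progenitors into acute myeloid leukaemia. When a pool of such cells is divided among recipients, a clone that arrives or survives in a single animal leaves its barcode there only, whereas a clone with many seeding cells can return in several.

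c-Kit positive haematopoietic progenitors were grown with IL-3, IL-6 and SCF and transduced with the barcode library, and MLL-AF9 leukaemia cells were transplanted into 3 Ptprca mice (1, 2 and 3) and 3 NSG mice (4, 5 and 6). Ptprca is an immunocompetent congenic strain on the C57BL/6 background, and NSG mice are without T cells, B cells and natural killer cells. Each animal gave 1 bone marrow and 1 spleen library of sorted viable cells at disease, and the starting progenitors gave 1 Baseline library. The labels state neither the animals' age nor the marker used for sorting. The deposited table names barcodes by number (GFP_Barcode_), and their letters are not shown here.

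Each CPM value was a mean of 2 technical repeats, whose reads could be recovered, and a library held 2484519 to 5252942 reads in total. The limit that a count of 0 allows, taken as 3 reads in the shallower repeat, was 0.575 to 8.80 CPM, and it covers counting error only, since amplified reads that carry no molecular identifier do not count molecules. The highest limit belonged to the bone marrow of mouse 3. The 3 NSG spleens stood apart. Of barcodes between 10 and 1000 CPM, 72.3%, 59.8% and 73.8% had reads in both repeats of the spleens of mice 4, 5 and 6, against 89.5% to 100% in the other disease libraries. CPM are shares, so fewer cells of a clone and more cells of all the others cannot be told apart.

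The bone marrow libraries of mice 1 and 5 also stood apart, in shared traces. Of the 15 one-mouse clones of mouse 1, 7 had reads in the bone marrow of mouse 5, and of the 51 of mouse 5, 16 had reads in the bone marrow of mouse 1. These shares, 46.7% and 31.4%, compared with 0% to 20.8% for the other 58 combinations of a mouse's clones with a library of another mouse. In mouse 1 bone marrow the median trace was 0.226 CPM, and 12 of the 16 lay under that library's floor of 0.677 CPM. The traces went with size, since 12 of the 17 clones at 100 CPM or more in mouse 5 bone marrow had one, and 4 of the 34 below it. The source of the traces was not tested. Without mice 1 and 5, the same rule gave 147 barcodes in the other 4 mice, 49 in Ptprca and 98 in NSG hosts. This was a partly different set, since barcodes shared with mouse 1 or 5 could then count as found in 1 mouse. Of the 150, mice 2, 3, 4 and 6 held 18, 16, 24 and 26.

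More of the small one-mouse clones were found in NSG than in Ptprca mice. The Ptprca mice 1, 2 and 3 held 15, 18 and 16 of them, 49 in all, with a mean of 16.3 ± 1.53 per mouse (SD, n = 3). The NSG mice 4, 5 and 6 held 24, 51 and 26, 101 in all, with a mean of 33.7 ± 15.0 (SD, n = 3). The strains did not overlap, although mouse 5 alone accounted for 51 of the 101 and the NSG mice differed from one another by more than the strains' nearest animals. Since these values chose the clones, no test was made. The order held when the rule was applied to bone marrow alone, with 17, 19 and 14 in the Ptprca mice and 26, 47 and 29 in the NSG mice. In spleen alone it did not, with 24, 24 and 22 in the Ptprca mice and 15, 43 and 26 in the NSG mice. A lower limit of 5 CPM in place of 10 also let the strains overlap, since mouse 2 then held 23 and mouse 4 held 19.

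NSG mice also held more barcodes at M of 10 CPM or more. In all, 261, 249 and 235 barcodes that were above 0 in Baseline were found in mice 1, 2 and 3, and 305, 347 and 309 in mice 4, 5 and 6. Small one-mouse clones were 5.75%, 7.23% and 6.81% of these in the Ptprca mice. In the NSG mice they were 7.87%, 14.7% and 8.41%. The shares of the strains did not overlap, but those of mouse 4 and mouse 2 lay close together. The larger one-mouse barcodes, at 1000 CPM or more, numbered 4, 3 and 3 in mice 1, 2 and 3 and 3, 5 and 5 in mice 4, 5 and 6, so that the strains overlapped. Numerous as they were, the small clones were a minor part of each leukaemia. They summed to 0.258%, 0.570% and 0.356% of the bone marrow libraries of mice 1, 2 and 3, and to 0.305%, 0.765% and 0.406% of those of mice 4, 5 and 6. Their share of the spleen libraries was 0.0646%, 0.222% and 0.192% in mice 1, 2 and 3 and 0.148%, 0.723% and 0.124% in mice 4, 5 and 6. The strains overlapped in both organs. Mouse 5 had the largest share in each, and mouse 1 the smallest.

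Most of the clones were far below the upper limit. The median M was 63.7 CPM over all 150, and 98 lay under 100 CPM. Between 10 and 20 CPM there were 25 clones, between 20 and 50 CPM 34, between 50 and 100 CPM 39, between 100 and 500 CPM 42, and between 500 and 1000 CPM 10. The median M was 28.7, 109.8 and 77.8 CPM in mice 1, 2 and 3. In mice 4, 5 and 6 it was 44.1, 71.8 and 55.9 CPM, so the strains overlapped in clone size. Under 100 CPM there were 68 NSG and 30 Ptprca clones, between 100 and 500 CPM 29 and 13, and at 500 CPM or more 4 and 6.

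The lower limit fell within a continuous range of values. The smallest clones inside it were GFP_Barcode_95860 in mouse 2, with M of 10.4 CPM, GFP_Barcode_54888 in mouse 5, at 10.6 CPM, and GFP_Barcode_45835 in mouse 4, at 10.8 CPM. Just outside were GFP_Barcode_24167 at 9.53 CPM, GFP_Barcode_27247 at 9.48 CPM and GFP_Barcode_47047 at 9.07 CPM. At the upper limit there was a gap, with GFP_Barcode_116493 at 954 CPM and GFP_Barcode_93020 at 856 CPM inside, and GFP_Barcode_1150 at 1152 CPM and GFP_Barcode_101686 at 1284 CPM outside.

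Found in 1 mouse did not always mean absent elsewhere. Of the 150 clones, 87 were at 0 in all 10 libraries of the other mice, and 63 had reads in at least 1 of them, 41 of these in exactly 1. In 22 of the 63, the highest M among the other 5 mice was under 1 CPM, while in 18 it was 5 CPM or more and hence close to the limit. The nearest to a second mouse was GFP_Barcode_4001, named here after its values were seen, which held an M of 80.5 CPM in mouse 3 and at most 8.66 CPM in another. Of the 18 near the limit, 15 were clones of NSG mice, which held 101 of the 150. Mice 1, 2 and 3 held 0, 0 and 3 of the 18, from 15, 18 and 16 clones. Mice 4, 5 and 6 held 8, 4 and 3, from 24, 51 and 26 clones, so the strains overlapped. Complete absence outside the host was seen for 28 of 49 Ptprca and 59 of 101 NSG clones.

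Which organ held the clones was counted next. In Ptprca mice nearly every clone was present in both organs: 15 of 15 in mouse 1, 17 of 18 in mouse 2 and 15 of 16 in mouse 3. In NSG mice this was so for 6 of 24 clones in mouse 4, 25 of 51 in mouse 5 and 7 of 26 in mouse 6. The NSG clones missing from an organ were mostly missing from spleen. A spleen value of 0 was recorded for 14, 22 and 17 clones of mice 4, 5 and 6, or 58.3%, 43.1% and 65.4% of them, and for 0 clones in mice 1, 2 and 3. Spleen alone held 4, 4 and 2 clones in mice 4, 5 and 6 and 0, 1 and 1 in mice 1, 2 and 3.

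Absence from the NSG spleen was not limited to these clones. Over all 1182 combinations of a barcode and a mouse with M between 10 and 1000 CPM, the spleen was at 0 in 25.1%, which divides into 2.09% in Ptprca and 40.8% in NSG mice. The small one-mouse clones, with 0 of 49 and 53 of 101 (52.5%), followed the same division. The bone marrow was at 0 in 5.41% of all combinations, 2.51% in Ptprca and 7.39% in NSG mice, beside 2 of 49 and 10 of 101 one-mouse clones. For barcodes found in 2 to 6 mice, whether or not above 0 at Baseline, 39.0% of the NSG combinations in this range were at 0 in spleen, at a median M of 132 CPM against 60.04 CPM for the NSG one-mouse clones. By size, the shares were close under 100 CPM and apart above it. With M under 100 CPM, 57.4% of the NSG one-mouse clones and 53.8% of the recurring combinations were at 0 in spleen. With M of 100 CPM or more these shares were 42.4%, which is 14 of 33, and 27.9%, which is 93 of 333. Sizes still differed within that range, with a median M of 216 CPM for the one-mouse clones and 332 CPM for the recurring combinations. The part of size in the gap was not tested. The NSG spleens were also the libraries with 2640788 to 3821789 reads and the most discordant repeats, and the part of this in the zeros was not tested.

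Between organs, the bone marrow value was the higher one for 95 clones and the spleen value for 55, or 36.7%, beside 34.4% over all combinations. Spleen was higher in 6 of 15, 8 of 18 and 8 of 16 clones of mice 1, 2 and 3 and in 7 of 24, 19 of 51 and 7 of 26 of mice 4, 5 and 6. These are 40.0% to 50.0% per Ptprca mouse and 26.9% to 37.3% per NSG mouse, beside 40.4% and 30.4% over all combinations of each strain. The pooled shares lay near those of all barcodes in this range, but the Ptprca share differed by clone size. With M under 100 CPM, spleen was higher in 19 of 30 Ptprca clones (63.3%), beside 49.7% of the recurring combinations of that size. With M of 100 CPM or more it was higher in 3 of 19 (15.8%), beside 30.5%, at a median M of 213 and 323 CPM. In NSG mice it was higher in 22 of 68 (32.4%), beside 29.9%, and in 11 of 33 (33.3%), beside 27.9%, for the same sizes. Among clones with reads in both organs, which leaves out the 53 NSG clones at 0 in spleen, spleen was higher in 43 of 85, beside 41.8% over all combinations with reads in both. By strain it was higher in 20 of 47 in Ptprca and 23 of 38 in NSG mice, beside 39.7% and 44.4%. None of these differences was tested.

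The technical repeats gave a partial measure of the error of these organ differences. For clones with reads in both repeats, the repeats of a library differed by a median of 1.25-fold in Ptprca bone marrow, 1.37-fold in Ptprca spleen, 1.53-fold in NSG bone marrow and 1.66-fold in NSG spleen. The last value rests on 25 clones. It leaves out 23 of the 48 NSG clones with spleen reads, which had them in 1 repeat only, and so understates the spread there. The organs differed by a median of 3.94-fold over 41 Ptprca clones and 3.68-fold over 17 NSG clones with reads in both repeats of both libraries. Both bone marrow repeats lay above both spleen repeats in 82 of the 150 clones, beside 56.2% over all combinations. By strain this was 24 of 49 Ptprca and 58 of 101 NSG clones, beside 52.0% and 59.1%. The reverse held in 35 clones, beside 22.6%, of which 19 were Ptprca and 16 NSG clones, beside 30.8% and 17.1%. In the other 6 Ptprca and 27 NSG clones the repeats of the organs overlapped, and the organs could not be ordered. Repeats of 1 library measure the technical spread and not the spread between animals, of which each clone has 1.

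In Ptprca mice, the larger clones lay mostly on the side of bone marrow and had reads in both organs. Of 19 clones with M of 100 CPM or more, 15 (78.9%) had both bone marrow repeats above both spleen repeats, beside 66.4% of the recurring combinations of that size. Spleen was higher in 3, beside 30.5%. All 19 had reads in both organs, beside 99.1%, so neither trait was limited to these clones. In mouse 2, GFP_Barcode_93020 held 1664 CPM of bone marrow (repeats 1833 and 1496 CPM) and 46.8 CPM of spleen (48.7 and 45.0 CPM). GFP_Barcode_70389 of the same mouse leaned the other way, with 407 CPM in bone marrow (390 and 425 CPM) and 1212 CPM in spleen (1225 and 1200 CPM). Both lay clear of the spread of their repeats. GFP_Barcode_13661, also of mouse 2, had the widest bias to bone marrow there, with 422 CPM in bone marrow (416 and 429 CPM) and 3.96 CPM in spleen, all from 1 repeat.

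In mouse 1, the 4 clones with M of 100 CPM or more were all higher in bone marrow. For GFP_Barcode_35343, named after its values were seen, the repeats overlapped and the organs could not be ordered. It held 157 CPM of bone marrow (139 and 175 CPM) and 132 CPM of spleen (124 and 140 CPM). GFP_Barcode_62865 held 1476 CPM of mouse 1 bone marrow (1803 and 1149 CPM) and 48.6 CPM of its spleen (59.5 and 37.8 CPM). GFP_Barcode_11774 held 377 CPM (457 and 297 CPM) and 34.1 CPM (44.0 and 24.3 CPM) in the same libraries. In mouse 3, GFP_Barcode_24043 held 996 CPM of bone marrow (977 and 1015 CPM) against 10.5 CPM of spleen (4.54 and 16.5 CPM). The widest bias to bone marrow in that mouse was that of GFP_Barcode_7403, with 938 CPM (756 and 1121 CPM) against 3.63 CPM (1.51 and 5.75 CPM). GFP_Barcode_36902 was instead higher in spleen, at 1025 CPM (1101 and 948 CPM) against 231 CPM (239 and 223 CPM) in bone marrow.

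In NSG mice, the 2 clones with the highest M of each animal lay nearly entirely in 1 organ, as GFP_Barcode_24043 and GFP_Barcode_93020 did in Ptprca mice. Of the next 4 clones of mouse 5 by M, GFP_Barcode_2639 was again in 1 organ and the other 3, named after their values were seen, were more even. GFP_Barcode_33201 held 696 CPM of bone marrow (811 and 582 CPM) and 504 CPM of spleen (414 and 594 CPM), and its repeats overlapped between the organs. GFP_Barcode_38765 held 581 CPM of bone marrow and 268 CPM of spleen, and GFP_Barcode_51155 held 468 and 374 CPM. GFP_Barcode_116493, the largest of the 150, held 16.0 CPM of mouse 5 bone marrow (23.8 and 8.15 CPM) and 1892 CPM of its spleen (1918 and 1867 CPM). GFP_Barcode_27686 of the same mouse held 8.35 CPM (1.30 and 15.4 CPM) and 1446 CPM (1412 and 1480 CPM), a 173-fold excess in spleen. These values show that the repeats of an NSG spleen could match closely for an abundant clone. GFP_Barcode_2639 had the widest bias to bone marrow in mouse 5, with 873 CPM (806 and 940 CPM) and a spleen value of 0. Its bone marrow value was 932-fold the spleen floor of 0.937 CPM, which covers counting error only.

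Mouse 4 held GFP_Barcode_28747 at 1428 CPM in bone marrow (1439 and 1417 CPM) and 13.3 CPM in spleen, the latter from 1 repeat. Its opposite was GFP_Barcode_18219, with 1.15 CPM in bone marrow (0 and 2.30 CPM) and 733 CPM in spleen (719 and 748 CPM), a 638-fold ratio. GFP_Barcode_15000 held 344 CPM of mouse 4 bone marrow (214 and 474 CPM), which was 287-fold the spleen floor, and was at 0 in its spleen. In mouse 6 the leading clones were bone marrow clones. GFP_Barcode_11144 held 814 CPM (896 and 731 CPM) and GFP_Barcode_8598 held 712 CPM (685 and 740 CPM). Both were at 0 in spleen, with bone marrow values of 998-fold and 873-fold the spleen floor. GFP_Barcode_38260 was its main spleen clone, with 604 CPM (679 and 528 CPM) against 5.06 CPM (0.726 and 9.39 CPM) in bone marrow.

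The 53 NSG clones at 0 in spleen were mostly seen in both measurements of bone marrow. Of these, 51 had reads in both bone marrow repeats. Over the 53, bone marrow values were 18.0-fold to 998-fold the spleen floors, with a median of 83.1-fold. These ratios do not bound the difference between the organs, since the floors cover counting error only. Of the 48 NSG clones with spleen reads, 23 had them in 1 spleen repeat only. The 10 NSG clones at 0 in bone marrow rested on fewer repeats, since 4 had reads in both spleen repeats. The 2 Ptprca clones at 0 in bone marrow had reads in both spleen repeats. One of them, GFP_Barcode_290 of mouse 2, named after its values were seen, held 34.2 CPM of spleen (37.8 and 30.6 CPM). In all, 140 of the 150 clones had reads in both repeats of at least 1 library, including every Ptprca clone, and the other 10 were NSG clones. Among these 10 was GFP_Barcode_42200 of mouse 5, whose 221 CPM in spleen came from 1 repeat at 442 CPM and whose bone marrow value was 0.226 CPM.

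A test of spleen against bone marrow across the animals had little to work on, because each clone reached M of 10 CPM in 1 of 6 mice, and its 0 calls were nearly fixed by that choice. A limma fit on log2(CPM + 1) of the 12 disease libraries, without a term for the mouse, tested 611 barcodes. Of these, 0 (0% of those tested) passed a Benjamini-Hochberg adjusted p of 0.05, with 34 at an unadjusted p under 0.05. All 150 one-mouse clones entered, 0 were called and 0 had an unadjusted p under 0.05. Their lowest adjusted p was 0.869 in limma. The median fitted difference, spleen minus bone marrow, was -0.49 on the log2 scale over the clones and -0.92 over all tested barcodes. Centred log-ratios move all barcodes by 1 constant per library, and the same medians were then 0.50 and 0.08, so neither sign says anything about the clones. Leaving out mouse 5 gave 1 called clone, GFP_Barcode_10181 of mouse 4 (difference 2.47, SE 0.38, limma adjusted p = 0.0318), and leaving out mouse 6 gave GFP_Barcode_137 of that same mouse 6 (-1.56, SE 0.27, limma adjusted p = 0.0450), which then had values in the other mice only. Both were named after their values were seen.

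At Baseline the one-mouse clones were neither the rarest nor the most abundant of the starting cells. Their median Baseline level was 113 CPM, with an interquartile range of 35.3 to 355 CPM and extremes of 0.638 and 5983 CPM. Barcodes found in 0 mice had a median of 28.8 CPM, and those found in 2 to 6 mice had 365 CPM. The medians followed the number of mice in which a barcode was found, at 168 CPM for 2 mice, 246 CPM for 3, 337 CPM for 4, 400.4 CPM for 5 and 681 CPM for 6. The 23 larger one-mouse barcodes had a median of 235 CPM. The Baseline library was a single sample, so these differences have no replicate check and carry no test.

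The starting barcodes were divided into 3 equal bins of rising Baseline abundance. In the lowest bin, up to 17.0 CPM, 20 of 798 barcodes were small one-mouse clones (2.51%, 95% Wilson interval 1.63% to 3.84%). In the middle bin, 17.0 to 146 CPM, there were 63 (7.89%, 6.22% to 9.97%), and in the highest bin 67 (8.40%, 6.67% to 10.5%). The intervals treat barcodes as independent, although they shared the same mice and Baseline library, so they do not serve to compare the bins. Barcodes found in 2 to 6 mice made up 1.88%, 10.7% and 34.8% of the same bins. As a part of the barcodes found in any mouse, small one-mouse clones made up 48.8% in the lowest bin, 41.4% in the middle one and 18.7% in the highest.

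Clones of the strains overlapped in Baseline level. The median was 189, 120 and 271 CPM for the clones of mice 1, 2 and 3 and 42.4, 121 and 146 CPM for those of mice 4, 5 and 6. Over the pooled clones it was 189 CPM for Ptprca and 92.8 CPM for NSG hosts. By organ, the median was 121 CPM for the 53 clones in bone marrow alone, 100.04 CPM for the 12 in spleen alone and 112 CPM for the 85 in both. The Spearman rho of Baseline level and M was 0.10 over the 150, which are not independent replicates and share 1 Baseline library. Because the rule confined M to values from 10 to under 1000 CPM, this rho describes the selection in part.

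Compared with Baseline, 59 clones had a higher M and 91 had a lower one. M was at least 10-fold above Baseline in 13 clones, 6 in Ptprca and 7 in NSG hosts, and at least 10-fold below it in 23, 9 and 14 in the same order. The upper limit of 1000 CPM and the lower limit of 10 CPM bound how far a clone can lie from its start, so these counts describe the selection in part.

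The 4 clones rarest at Baseline lay under 3 CPM there, so the rule alone, with its lower limit of 10 CPM, put their M above Baseline. GFP_Barcode_19331 had 0.638 CPM at Baseline (95% Wilson interval 0.205 to 1.77 CPM), from 3 reads, and held 200.5 CPM of mouse 1 bone marrow (238 and 163 CPM) and 3.69 CPM of its spleen. GFP_Barcode_5400 had 1.10 CPM at Baseline (0.429 to 2.35 CPM) and an M of 88.5 CPM in mouse 5, with 28.8 CPM in bone marrow and 148 CPM in spleen. GFP_Barcode_18219, the spleen clone of mouse 4, had 2.27 CPM at Baseline (1.23 to 3.95 CPM), from 11 reads, and an M of 367 CPM. GFP_Barcode_21013 had 2.99 CPM (1.82 to 4.97 CPM), all from 1 Baseline repeat. Its Baseline repeats, at 0 and 5.99 CPM, both lay outside that interval. In mouse 2 it held 179 CPM of bone marrow (195 and 164 CPM) and 53.2 CPM of spleen (51.7 and 54.7 CPM). All 4 had few reads at the start, and each had reads in both repeats of at least 1 disease library.

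The 4 clones most abundant at Baseline lay above 1000 CPM there, so the rule alone put their M below Baseline. The intervals of their Baseline values cover the counting of reads only, and the repeats of these values were not resolved. GFP_Barcode_23 held 5983 CPM of Baseline (5916 to 6051 CPM) and was found only in mouse 5, with 27.9 CPM in bone marrow (29.9 and 25.8 CPM) and 0 in spleen. GFP_Barcode_130960 held 4474 CPM (4416 to 4533 CPM) at Baseline. In mouse 3 it had 3.89 CPM in bone marrow (7.78 and 0 CPM) and 63.8 CPM in spleen (86.2 and 41.4 CPM). The bone marrow value came from 18 reads, all in the deeper repeat, and lay under a floor set by the shallower one. GFP_Barcode_11900 held 3380 CPM (3329 to 3431 CPM) at Baseline, 25.8 CPM in bone marrow (37.8 and 13.9 CPM) and 85.0 CPM in spleen (79.7 and 90.3 CPM) of mouse 6. GFP_Barcode_26766 held 3246 CPM (3197 to 3297 CPM) at Baseline and 51.2 CPM in the spleen of mouse 6, seen in 1 repeat, with 0 in its bone marrow. The 2 clones of mouse 6 were at 0 in all 10 libraries of the other mice.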

How the data were processed

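DNA barcodes were counted in 12 disease libraries and 1 Baseline library. The authors deposited CPM values, with 1 line per barcode. Bowtie 1.2.2 and R 3.6 are named in the submitters' processing notes, and lysates were split into technical replicates per the labels' protocols. How those tools were run is not given in the sources used here. Groups and mouse numbers came from the sample titles. Libraries with 1 mouse number come from 1 animal, and the pairing was checked on 373 barcodes: organ deviations within a mouse correlated between 0.773 and 0.796 for Ptprca, and between 0.208 and 0.254 for NSG.

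Under 60 CPM, all values could be written as whole reads of 2 repeats (tolerance 1e-06 CPM), and 5092 of 5093 values under 1000 CPM were resolved in this way. Because repeats of unequal depth were averaged, no count model was used. The organ comparison took every barcode that reached 10 CPM in 1 or more disease libraries, and log2(CPM + 1) values were fitted in limma 3.58.1 (R 4.3.3) with a mean-variance trend. The main fit had 1 mean per strain and organ and no term for the mouse, so it treated the organs of an animal as independent. Benjamini-Hochberg adjustment ran over all fitted barcodes, with a threshold of 0.05. Other values used Python 3.11.15, pandas 2.3.3 and scipy 1.17.1. Procedures were tested on simulated data.

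The clones, the rule and the lists were chosen with earlier results of these data known. Named barcodes were, per mouse, the 2 with the highest M and, at M of 100 CPM or more, the largest bias to each organ. Over all clones they were the 4 highest and 4 lowest at Baseline and those nearest the limits. Alternatives changed the limits, the measure of M, the Baseline minimum, the repeats, the mice, the pseudocount, the filter and the scaling.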

Additional observations from a re-analysis of the deposited data

How the results depend on the processing

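The number of small one-mouse clones was 150, and between 135 and 158 when any 1 mouse was left out. In Ptprca hosts it ran from 37 to 58 and in NSG hosts from 79 to 112. Each of these 6 cases set fewer mice of 1 strain against the 3 of the other. With mouse 4, 5 or 6 left out, NSG hosts held 101, 79 and 95 and Ptprca hosts 57, 56 and 58. Leaving out a Ptprca mouse favoured NSG hosts by the number of mice alone. Barcodes shared with the mouse left out could newly count as found in 1 mouse, so the sets differed. The share with spleen above bone marrow ran from 34.8% to 40.7%, the share of NSG clones at 0 in spleen from 47.5% to 58.2%, and the median Baseline level from 104 to 151 CPM. The share of NSG clones at 0 in spleen was 34.0% with a lower limit of 50 CPM, where a clone at 0 in spleen needs 100 CPM in bone marrow. The count of clones called between the organs by limma was 0, and 0 to 1 with each mouse left out. With the replicate block, the mouse as a block, it was also 0. These counts say nothing about stability, because clones found in 1 mouse could hardly pass. Bone marrow alone, spleen alone and the limma fit without mice 1 and 5 were added after seeing the data. The small Baseline levels and the NSG spleens, where a repeat could miss a clone, limit the precision.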
